A study of Caenorhabditis elegans with 2 samples.

Results

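The histone genes of Caenorhabditis elegans are the subject here: the protein-coding genes whose symbol is "his-" followed by a number. In the Ensembl annotation of the WBcel235 assembly 72 of 19973 protein-coding genes met this rule, and all 72 were described. They comprise 17 genes for the core histone H2A, 16 for H2B, 15 for H3 and 16 for H4, 5 genes of the H3.3 kind, the linker histone gene his-24, and 2 short genes, his-39 and his-73, annotated as containing a histone domain. Of the 72 genes, 16 had a region of NHR-76 ChIP signal listed within 1 kb of the 5' end in the reads of both libraries pooled. One region, just upstream of the H4 gene his-37, passed the authors' reproducibility threshold. Pooled regions of high rank also lay near the H4 and H2A pair his-67 and his-68 and the H2A and H2B pair his-35 and his-41. The H3.3 gene his-72 and the H3 gene his-42 had them as well. At his-67 and his-68 replicate 2 alone was high, and the summit at his-35 and his-41 was nearer to another gene. The linker histone gene his-24 had a region of high rank in each library but not in the pooled list. At his-72, his-42 and his-24 the strongest regions of the libraries lay at different places. The genes in repeated arrays mostly had no listed region.

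The data come from chromatin immunoprecipitation and sequencing (ChIP-seq) of NHR-76, a nuclear hormone receptor, in whole larvae at L1, the first stage after the egg hatches. Both libraries, biological replicates 1 and 2, form 1 group from strain OP203, genotype unc-119(ed3) III; wgIs203, with males and females pooled, and this line stably expresses the receptor with GFP-FLAG at its C-terminus. The labels do not name the promoter that drives the transgene, and they do not say whether the libraries came from separate cultures, so spread between them may be technical. Since whole animals were used, the cells that carried a signal are unknown, and with 1 group there is no condition to compare and no test between conditions.

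Histones are the proteins around which nuclear DNA is wrapped: H2A, H2B, H3 and H4 form the core particle, and H1 binds the DNA between particles. Core histone genes are present in many near-identical copies, often as head-to-head pairs that share 1 spacer, and are transcribed mainly while DNA is replicated. Variant histones such as H3.3 are supplied outside replication as well, and their genes are usually single and spliced. NHR-76 is a transcription factor of a receptor family that is greatly expanded in nematodes, and it is known from the control of intestinal fat use downstream of serotonin.

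Each library's list and the pooled list held 30000 regions, each with a summit in its middle and a signal in the peak caller's own units. Every pooled region was 324 bp wide, and those of replicate 1 and replicate 2 were 344 and 310 bp. A signal is given below as a multiple of the median listed region of the same list, which was 10.29 in the pooled list, 6.504 in replicate 1 and 6.068 in replicate 2, in the caller's units. The caller's q-value was 0.05 or below for 695 pooled regions, 794 regions of replicate 1 and 2004 of replicate 2. The 248 thresholded peaks were the 248 strongest pooled regions. A region that merely appears in a list is therefore not a called peak, and most listed regions have high q-values. How many reads lie behind either library is unknown, and control libraries were not used here.

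The 4 stretches of DNA below were chosen, with the values known, to show what the upstream DNA of listed genes and a repeated spacer look like. The first 2 lie upstream of genes with regions of high rank and occur once in the genome. The other 2 are spacers between paired genes that occur in several exact copies and had no listed region. Of the 14 pairs with a spacer that occurs once, 10 had no pooled region listed within 1 kb of either 5' end. The choice is thus not typical of all pairs. They were read from the RefSeq sequence of WBcel235, which is the assembly named ce11 in the files. Each is written 5' to 3', and capitals mark every match, on either strand, to the 7 short motifs searched. These were TATAAA (the TATA box), the promoter element CCAAT, the GATA factor core TGATAA, the repeat GAGAGA, the GC-rich element GGGCGG, and the nuclear receptor half-sites AGGTCA and, in a variant form, AGTTCA. A match is a description of the letters and not a site of binding. The his-37 upstream sequence is V:9546864-9547104, plus strand, and ends at the base before the annotated 5' end, so it holds the summit of the thresholded peak, 79 bp before that end. The his-72 upstream sequence is III:12369051-12369350, minus strand, written towards the gene. The spacer of his-10 and his-9 is II:13823376-13823647, plus strand, and runs from the first codon of the H4 gene his-10 on the minus strand to that of the H3 gene his-9 on the plus strand. The spacer of his-51 and his-52 is V:8850172-8850463, plus strand, between an H2A and an H2B gene.
his-37 upstream: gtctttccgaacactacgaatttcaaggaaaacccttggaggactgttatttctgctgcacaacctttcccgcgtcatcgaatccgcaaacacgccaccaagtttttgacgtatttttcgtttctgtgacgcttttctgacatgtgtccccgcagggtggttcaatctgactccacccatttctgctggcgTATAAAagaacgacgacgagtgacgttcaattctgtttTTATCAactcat
his-72 upstream: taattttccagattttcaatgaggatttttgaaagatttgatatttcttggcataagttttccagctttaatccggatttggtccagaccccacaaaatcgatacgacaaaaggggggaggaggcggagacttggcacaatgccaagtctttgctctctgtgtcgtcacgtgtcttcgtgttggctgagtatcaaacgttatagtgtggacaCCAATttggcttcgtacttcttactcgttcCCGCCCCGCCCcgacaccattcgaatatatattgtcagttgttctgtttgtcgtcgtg
his-10 his-9 spacer: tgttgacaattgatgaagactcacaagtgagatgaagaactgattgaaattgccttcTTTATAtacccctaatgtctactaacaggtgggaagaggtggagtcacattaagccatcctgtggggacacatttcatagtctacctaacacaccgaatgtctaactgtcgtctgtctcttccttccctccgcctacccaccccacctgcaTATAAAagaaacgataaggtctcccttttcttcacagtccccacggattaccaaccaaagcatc
his-51 his-52 spacer: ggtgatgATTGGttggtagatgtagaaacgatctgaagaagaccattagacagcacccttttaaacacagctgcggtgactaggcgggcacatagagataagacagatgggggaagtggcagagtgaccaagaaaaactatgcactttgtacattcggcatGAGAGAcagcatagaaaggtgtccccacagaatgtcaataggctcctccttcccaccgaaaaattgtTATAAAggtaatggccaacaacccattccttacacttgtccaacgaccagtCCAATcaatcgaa

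The his-37 stretch holds a TATAAA, the sequence of a TATA box, from its base 192, and a TGATAA read on the opposite strand from base 230. The his-72 stretch has no TATAAA but a CCAAT from base 213 and a pair of overlapping GGGCGG on the opposite strand, from bases 243 and 248. The his-10 and his-9 spacer has 1 TATAAA directed at each gene, from base 58 on the opposite strand and from base 209 on the written strand. That 272-base spacer stands 3 times on chromosome II, letter for letter, in front of 3 pairs of H3 and H4 genes. The 292-base spacer of his-51 and his-52 stands 4 times on chromosome V, and carries a CCAAT near each end, a GAGAGA from base 162 and a TATAAA from base 229.

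A smaller share of histone genes than of protein-coding genes at large was near a listed region in each list. A listed pooled region had its summit within 1 kb of the 5' end of 16 of the 72 histone genes (22.2%), and of 10328 of the 19973 protein-coding genes (51.7%). In replicate 1 the count was 18 histone genes (25.0%), against 10177 genes of all kinds (51.0%). In replicate 2 it was 17 histone genes (23.6%), against 10169 genes of all kinds (50.9%). Both libraries listed a region, not necessarily the same one, at 15 histone genes (20.8%) and at 5957 protein-coding genes (29.8%).

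For strong regions the counts were small. Among the 1000 strongest pooled regions, at least one lay near 7 histone genes (9.72%) and near 660 protein-coding genes (3.3%). Pooled regions at a q-value of 0.05 or below served 5 histone genes (6.94%) and 502 protein-coding genes (2.51%). A thresholded peak lay at 1 histone gene (1.39%) and at 205 protein-coding genes (1.03%), so that last share is near the background. Paired histone genes share a region: the 7 genes were served by 5 distinct regions and the 5 genes by 3, and all 16 listed genes by 12. The 7 genes became 4 within 500 bp, 3 for the 500 strongest regions, and 4 in replicate 1 alone. Over all protein-coding genes the share was not counted for these settings. Of the 7 genes, his-35 and his-41 rest on a summit nearer to another gene. No test was made of these shares, since histone genes of 1 cluster are not independent.

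**Figure D1:**
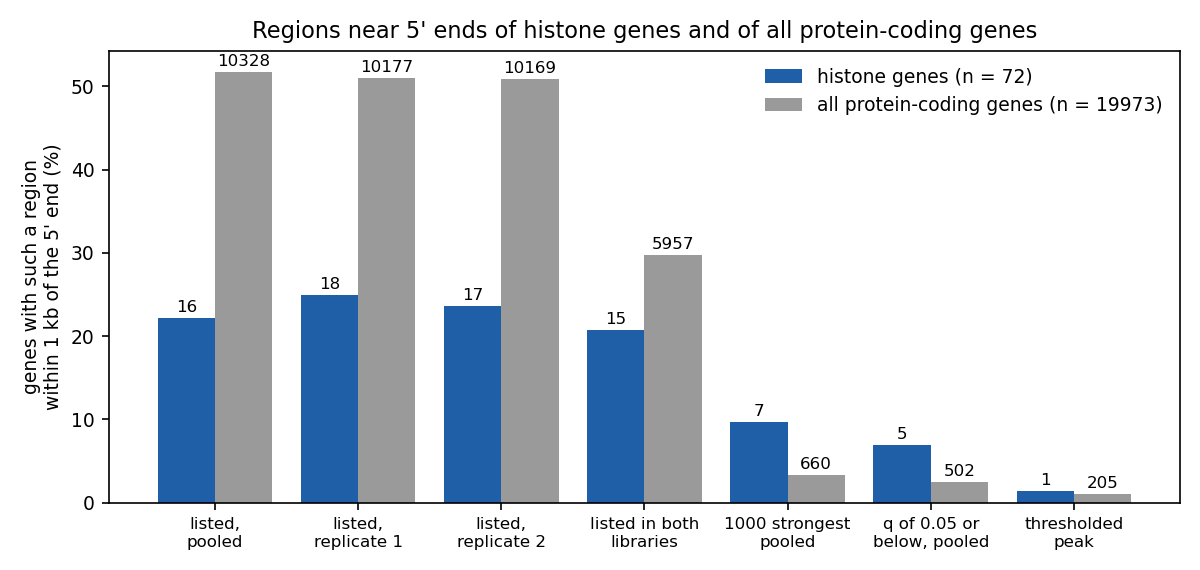
Share of histone genes (blue, left bar of each pair, n = 72) and of all protein-coding genes (grey, n = 19973) with a region within 1 kb of the 5' end, in percent, for each list and for stricter choices of pooled region. Numbers above the bars count genes. The blue bars are lower for any listed region (22.2% against 51.7% in the pooled list) and, with 7 histone genes, higher for the 1000 strongest (9.72% against 3.3%).

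Among genes with a listed region, the strongest one had a median of 1.536 times the median pooled region over the 16 histone genes, with a range of 0.8724 to 7.09. The value depended on the distance allowed, at 1.011 within 500 bp and 0.9417 within 2 kb. Over the 10328 protein-coding genes with a listed region the median was 1.068 and the range 0.7509 to 11.14. The libraries differed in this measure. In replicate 2 the median was 1.64 over 17 histone genes and 1.066 over all genes with a region, whereas in replicate 1 it was 1.139 over 18 histone genes and 1.071 over all. No higher level of histone regions can therefore be read from these medians.

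The repetition of the DNA at each gene was measured close to the 5' end, in a narrower stretch than the 1 kb searched for summits. Several listed summits lie outside that stretch. For each 5' end the 324 bases around it were cut into overlapping words of 36 bases, and the share of words that occur once in the genome was taken. The median share was 0 over the 72 histone genes and 100% over all protein-coding genes. In 45 histone genes fewer than 50% of the words occurred once, and none of these 45 had a listed pooled region. Over all protein-coding genes, these 45 included, the same kind of sequence stood at 669, of which 76 had a listed region (11.4%). Of the 19 histone genes with 50% to under 100% of the words occurring once, 9 had a listed region (47.4%), beside 671 of 1735 protein-coding genes (38.7%). Of the 8 histone genes at which every word occurred once, 7 had one (87.5%), beside 9581 of 17569 protein-coding genes (54.5%). These strata are small, and genes of 1 cluster within them are not independent.

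Single libraries gave a little more. Of the 45 histone genes with mostly repeated words, replicate 1 listed a region at 2, his-3 and his-73, and replicate 2 at 1, his-3. How the authors treated reads that match several places is not recorded in the labels or listings, and the part of repetition in these counts was not tested.

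**Figure D2:**
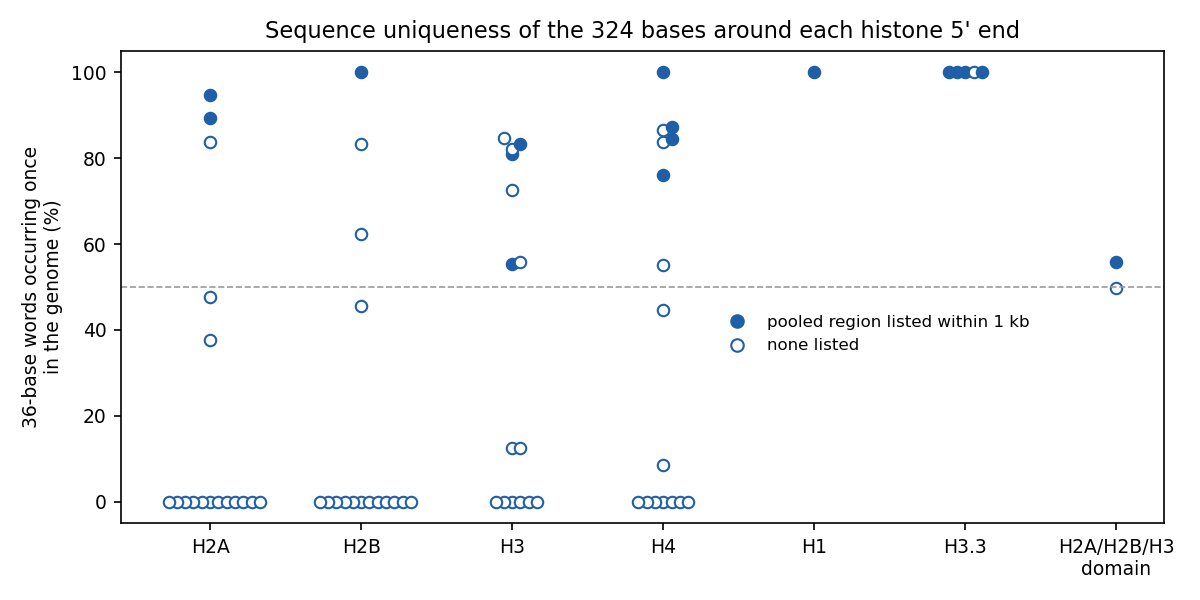
Share of 36-base words that occur once in the genome, in percent, within the 324 bases around the 5' end of each histone gene, by class of histone. Each circle is 1 gene, filled where a pooled region was listed within 1 kb. The dashed line marks 50%. All 16 filled circles lie above it, and the 45 genes below it are all open.

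The 72 genes encode 16 distinct proteins. All 15 H3 genes encode the same protein of 136 residues and all 16 H4 genes the same protein of 103 residues. Of the 17 H2A genes, 16 share 1 protein of 127 residues, and the remaining one is his-35. The 16 H2B genes encode 4 proteins, and at most 6 genes share one of them, of 123 residues. In all, 62 genes have another gene with an identical protein, and 36 have another with an identical coding sequence.

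The classes of histone differed in sequence, and listed regions were counted by class, in small numbers. A pooled region was listed at 2 of 17 H2A genes, with a median of 0 for the share of words occurring once. It was listed at 1 of 16 H2B genes, where that median was also 0. Among H3 genes 3 of 15 had one, at a median share of 12.5%, and among H4 genes 4 of 16, at 26.6%. Of the 5 H3.3 genes, at which every word occurred once, 4 had a listed region, beside 54.5% of all protein-coding genes with such sequence. The strongest pooled summit for his-69 was 8 bp from the 5' end of rcq-5, that for his-74 lay within ccch-3, and that for his-71 lay past the gene. The linker histone gene had one, and so did his-39 but not his-73 among the domain-containing genes. Over the 64 core genes together the count was 10 (15.6%), beside 51.7% of all protein-coding genes.

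Spliced histone genes were also counted apart from those of 1 exon. The annotation gives introns to 7 histone genes (his-24, his-35, his-37, his-41, his-71, his-72 and his-74), and all 7 had a listed pooled region. Not every strongest region lay at the gene itself. The genes his-35 and his-41 share one whose summit is 126 bp from the 5' end of C50F4.6. That of his-74 lies within ccch-3, and that of his-71 lies past the gene with 0.9878 times the median. Within 500 bp, 6 of the 7 had a listed region. Of the 65 histone genes of 1 exon, 9 had one (13.8%). Over all protein-coding genes the shares were 51.9% of those with introns and 46.4% of those of 1 exon. The 7 spliced histone genes also had few repeats: at 6 of them every word occurred once, and at the seventh, his-35, 94.81% did. Among histone genes of 1 exon, every word also occurred once at 2, his-69 and his-70, and only his-69 had a listed region. The other 63 histone genes of 1 exon had repeated words, and 8 of these had a region. Over all protein-coding genes of the same kind it was 90 of 282 (31.9%), a set that includes the 63. Splicing and repetition of sequence cannot be told apart in so few genes.

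Of the H2A and H2B genes, 1 head-to-head pair was listed together. The genes his-35 (WBGene00001909, V 9544659 to 9545288, minus strand) and his-41 (WBGene00001915, V 9545536 to 9546264, plus strand) encode H2A and H2B and are divided by a spacer of 247 bases. Their strongest pooled region (V 9546056 to 9546379) ranked 683 with a multiple of 2.149 and a q-value of 0.04908. The library values at both genes were 1.614 in replicate 1 and 1.64 in replicate 2 (1.627 ± 0.01838, SD, n = 2). The libraries thus gave nearly the same signal. The summit lay in exon sequence of his-41 after its coding part, 682 bp after the 5' end of his-41 and 930 bp before that of his-35. It was much nearer to the 5' end of another gene, C50F4.6, 126 bp away. Inside the spacer itself a weaker pooled summit had 1.011 times the median region at rank 14496, and replicate 2 had one of 0.8712 there.

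At the pair his-68 (H2A, WBGene00001942) and his-67 (H4, WBGene00001941), the only pair of these classes, the libraries disagreed. The pooled region (I 9988819 to 9989142) ranked 481 with a multiple of 2.419 and a q-value of 0.03434, and its summit lay within the 368-base spacer, 151 bp before his-68 and 218 bp before his-67. The overlapping region had a multiple of 0.8942 and rank 19701 in replicate 1, and 3.023 and rank 243 in replicate 2. Replicate 2 alone was high. The strongest region of replicate 1 within reach, at 1.003 times the median, lay elsewhere, 263 bp into his-67. The 5' end of alg-5, an Argonaute gene, was 821 bp from the pooled summit.

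The H3 gene his-42 (WBGene00001916, II 13828287 to 13828697, minus strand) lies at the end of the largest array. Its pooled region (II 13829076 to 13829399) was 541 bp upstream and ranked 754 with a multiple of 2.103 and a q-value of 0.05508. Of the 36-base words in this region 71.28% occurred once, and it overlaps an snRNA gene, C47F8.9, and a non-coding RNA gene, R05D7.8. Replicate 1 had 2.932 times the median at rank 178, but 824 bp upstream, 283 bp from the pooled summit, where a second pooled region reached 1.546. Replicate 2 had 2.08 at rank 1025, 551 bp upstream. Both libraries were thus high at his-42, at different distances (2.506 ± 0.6025, SD, n = 2).

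The other H3 genes with a region were weak. The pair his-32 (H3) and his-31 (H4) had 0.8724 times the median pooled region at rank 21612, within the spacer. Its strongest region was 1.185 in replicate 1 and 1.203 in replicate 2, and only that of replicate 2 overlapped the pooled one. The pair his-2 (H3) and his-1 (H4) had 0.9244 at rank 18757. Its strongest region was 1.052 in replicate 1 and 1.212 in replicate 2, and only that of replicate 1 overlapped the pooled one. That pooled region lay over the coding sequence of his-2, and 30.8% of its words occurred once. These values are close to the median listed region, so they do not stand above the bulk of the lists.

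Among H4 genes and among all 72, his-37 (WBGene00001911, V 9547105 to 9547607, plus strand) had the strongest region. The gene has 2 exons and no partner opposite, yet encodes the same H4 protein as the other 15. Its region (V 9546864 to 9547187) had a pooled signal of 72.97, or 7.09 times the median region, at rank 16 with a q-value of 0.002801, and is a thresholded peak. Replicate 1 had 4.82 times the median at rank 36 and replicate 2 had 5.841 at rank 31 (5.331 ± 0.722, SD, n = 2). The 3 summits lay 79, 102 and 77 bp upstream in the pooled list, replicate 1 and replicate 2, within the sequence printed above. Every word of the region occurred once. A further region 446 bp into the gene had 0.9119 times the median in the pooled list and 1.85 in replicate 2. The genes his-35, his-41 and his-37 stand within 2949 bp of each other on chromosome V.

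**Figure D3:**
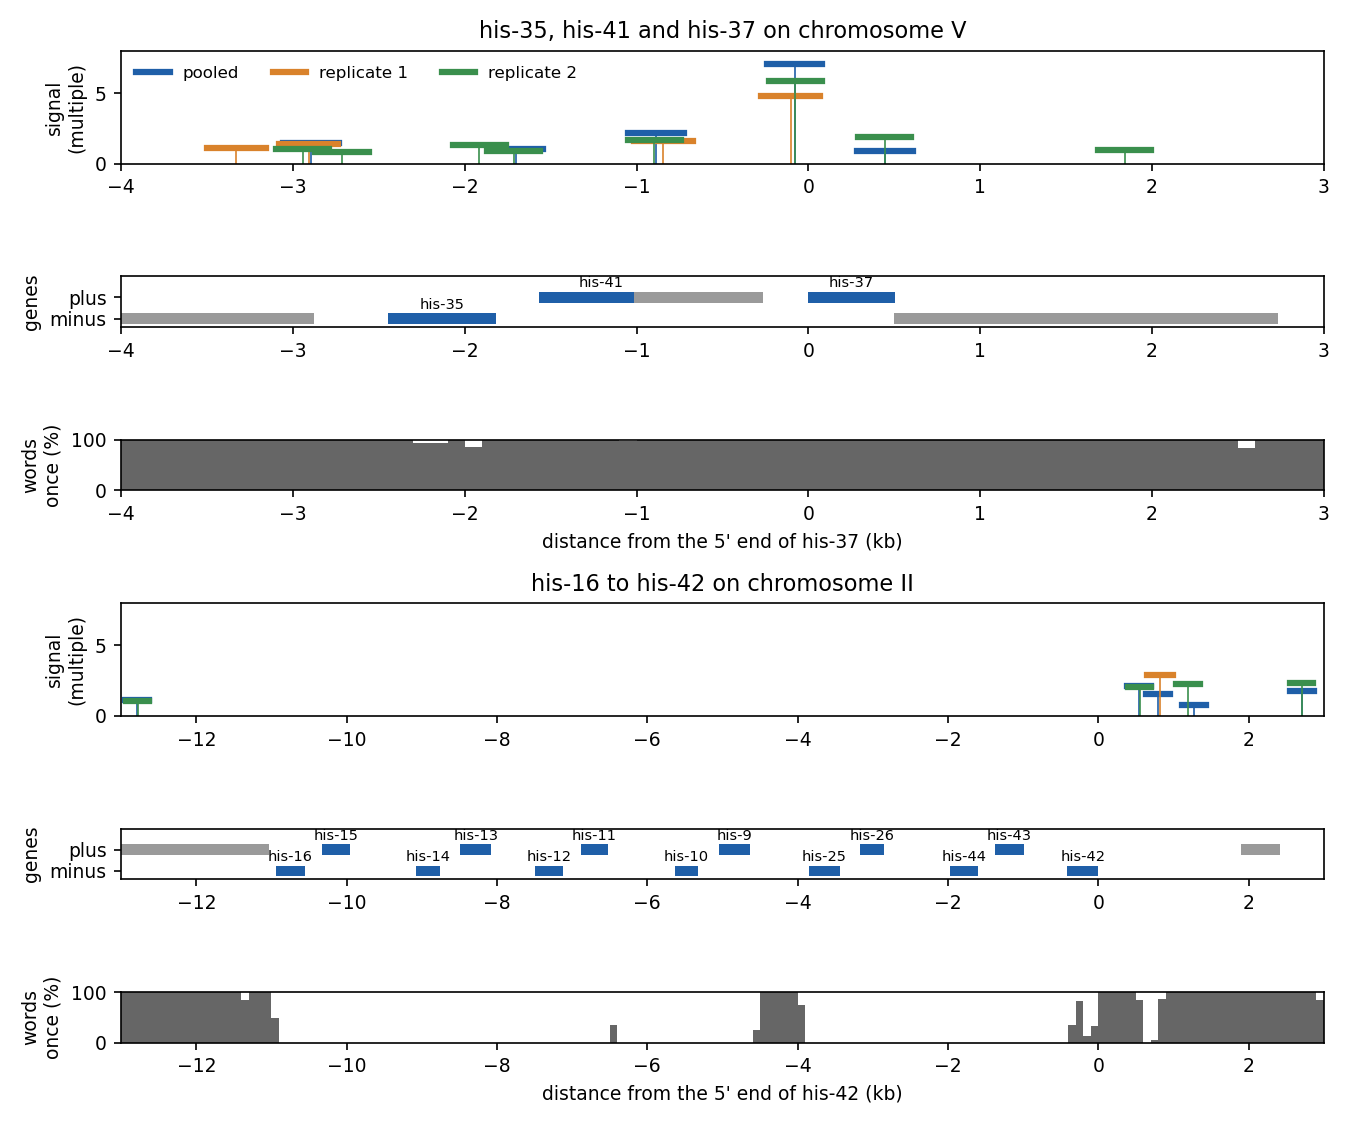
Listed regions, genes and sequence uniqueness around his-37 (upper 3 panels) and along the chromosome II array that ends with his-42 (lower 3 panels), against distance from the gene's 5' end in kb. Horizontal bars show the extent and signal of listed regions as multiples of the list's median region (blue pooled, orange replicate 1, green replicate 2), blue boxes are histone genes and grey boxes other protein-coding genes, and dark columns give the share of 36-base words that occur once. Signal reaches 7.09 just upstream of his-37, while between the 13 genes of the array no region is listed and few words are unique.

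The linker histone gene his-24 (WBGene00001898, X 14490094 to 14491119, plus strand) was among the strongest in each library but not in the pooled list. Replicate 1 had 3.448 times the median at rank 97, 89 bp into the gene. Replicate 2 had 2.441 at rank 510, but 683 bp into the gene, and no region overlapping the pooled one. The pooled region (X 14490001 to 14490324) had 1.714 at rank 1868 with a q-value of 0.2011, over the coding sequence 69 bp from the 5' end, and a second one 673 bp into the gene had 1.23. The strong regions of the libraries thus lay at different places in the gene.

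The H3.3 genes ranged from the top 1000 to no region at all. The gene his-72 (WBGene00001946, III 12367475 to 12369050, minus strand), which encodes H3.3, had 2 pooled regions of like strength: one 157 bp upstream with 2.109 times the median at rank 746 and one 939 bp into the gene with 2.093 at rank 777. In replicate 1 the strongest was the one inside the gene, with 2.076 at rank 771, whereas 126 bp into the gene it had 1.123. In replicate 2 the strongest was upstream, with 2.785 at rank 307, and the inner one had 0.9952. The libraries were high at different places, upstream in replicate 2 and inside the gene in replicate 1, and the mean over their strongest regions was 2.431 ± 0.5013 (SD, n = 2). The upstream region (III 12369045 to 12369368, q-value 0.05433) contains the whole of the printed sequence.

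The other H3.3 genes were lower. The gene his-74 (WBGene00012276) had 2.545 times the median in replicate 2 at rank 424 and no region in replicate 1, and the pooled value was 1.273 at rank 6547. That summit lay 736 bp downstream of the 5' end and beyond the far end of his-74, within ccch-3 and 93 bp from the 5' end of that gene. The gene his-69 (WBGene00001943) had 1.359 times the median pooled region, with 1.092 in replicate 1 and 0.9986 in replicate 2, at a summit 8 bp from the 5' end of rcq-5. The gene his-71 (WBGene00001945) had 0.9878 in the pooled list, 894 bp downstream of the 5' end and past the gene. A weaker pooled region 206 bp upstream had 0.9051. Replicate 1 had 1.315 at a summit 203 bp upstream and 1.185 at one 930 bp downstream, and replicate 2 had no region. His-70 (WBGene00001944) had none in any list, although its nearest pooled summit was 1006 bp away, just beyond the limit of 1 kb.

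Of the domain-containing genes, his-39 (WBGene00001913) had 0.9417 in the pooled list and 1.007 in replicate 2, at a summit 253 bp from the 5' end of otpl-4, and none in replicate 1. His-73 (WBGene00001947) had 0.7814 in replicate 1 only. Of the 12 distinct pooled regions, a histone gene was the nearest protein-coding 5' end for 8. The regions at his-35 with his-41, at his-69, at his-74 and at his-39 were nearer to another gene. Just inside the limit lay the summits at his-35 (930 bp) and his-71 (894 bp).

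**Figure D4:**
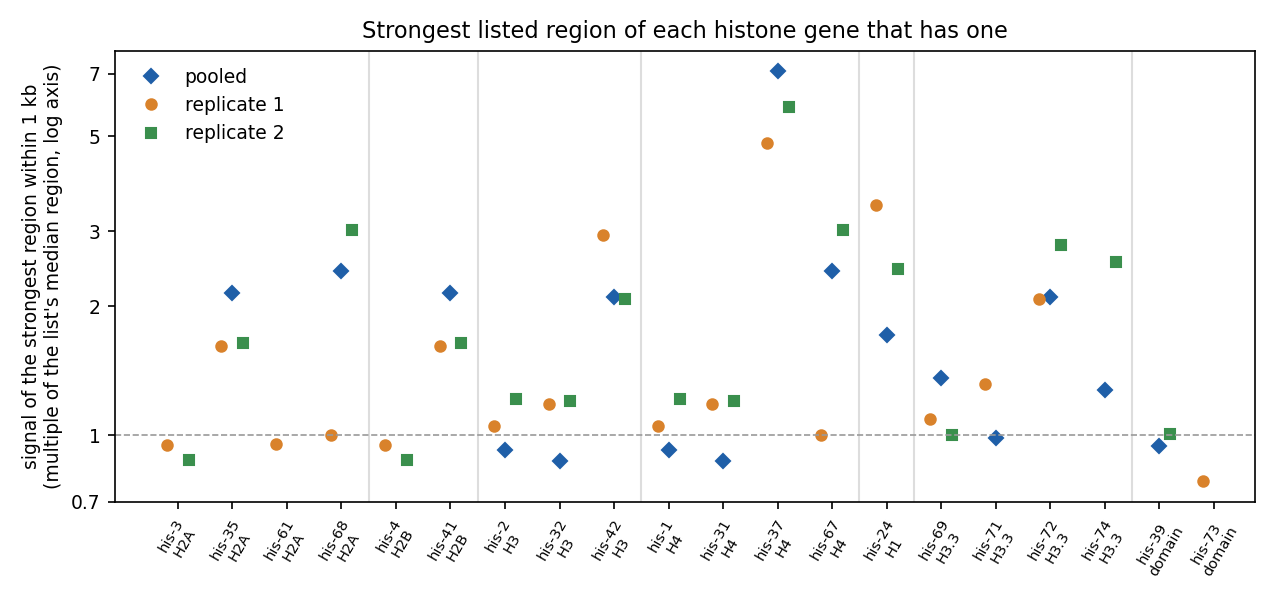
Signal of the strongest region within 1 kb of each of the 20 histone genes with a region in any list, as a multiple of that list's median region (log axis), for the pooled list (blue diamonds), replicate 1 (orange circles) and replicate 2 (green squares), ordered by class. The dashed line marks the median region. The his-37 points lie between 4.82 and 7.09, above all others, and the his-68 and his-67 points of replicate 1 lie near 1 while those of replicate 2 lie at 3.023.

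In the libraries taken apart, 3 histone genes were near the 1000 strongest regions of both: his-24, his-37 and his-72. At his-24 and his-72 those regions lay at different places in the libraries. Replicate 1 added his-42, for 4 in all. Replicate 2 added his-67, his-68 and his-74, for 6. Over all protein-coding genes these counts were not made for single libraries. A library listed a region at 4 genes that had no pooled one: his-3 and his-4, which share a region of 0.9491 in replicate 1 and one of 0.8753 in replicate 2, his-61 with 0.9557 in replicate 1, and his-73. The remaining 52 genes had no region in any of the 3 lists. The nearest pooled summit of the 56 genes without a pooled region lay between 1006 and 48220 bp away, with a median of 3699.5 bp.

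By position the 72 genes form 18 clusters when 5' ends under 20 kb apart are joined, and 11 clusters had a listed pooled region. The 9 clusters of 4 or more genes hold 58 genes, of which 6 had a listed region, against 10 of the 14 genes outside them. These 9 clusters span 66125 bp and contained 8 pooled summits, or 1.21 per 10 kb, against 2.99 per 10 kb over the genome. The array on chromosome II (13817760 to 13828697) holds 13 genes and no pooled summit inside, and his-42, at its edge, was its only gene with a region. On chromosome V the cluster of 6 genes from his-50 to his-53 (8847393 to 8854053) was 42254 to 48220 bp from the nearest pooled summit, and that of 8 genes from his-28 to his-18 (8889488 to 8898539) was 3700 to 12129 bp from it. On chromosome IV the cluster of 8 genes from his-47 to his-57 (11324056 to 11341703) contained 6 pooled summits, yet none within 1 kb of a histone 5' end.

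Several smaller clusters had few or no regions. On chromosome IV the 4 genes his-66 to his-64, and on X the pair his-38 and his-40, had none in any list. The 4 genes his-61 to his-59 had none in the pooled list and the 1 region of replicate 1 given above. In the cluster of 6 genes from his-29 to his-34, only the middle pair, his-31 and his-32, was listed, and in that of 5 genes from his-8 to his-39 on chromosome V only his-39. The clusters of 1 gene on X, his-71 and his-24, each had a region.

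Most histone genes, 62 of the 72, stand as 31 head-to-head pairs: 16 of H2A with H2B, 14 of H3 with H4, and 1 of H4 with H2A. The spacers between the annotated 5' ends measure 227 to 368 bases, with a median of 258. The spacers of 17 pairs have an exact copy elsewhere in the genome, and no gene of these pairs had a listed pooled region. Of the 14 pairs with a spacer that occurs once, 4 had one. A pooled summit lay inside the spacer of 3 pairs (his-67 with his-68, his-31 with his-32, and his-35 with his-41), a summit of replicate 1 inside 1 spacer and of replicate 2 inside 3. A spacer can be single in the exact sense and still close to another: those of his-46 with his-45 and of his-55 with his-56 are each 99.6% identical to a spacer of the same length, that of his-8 and his-7 is 95.5% identical to one, and that of his-4 and his-3 88.7%.

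The base composition of histone 5' ends differed from that of other genes. The GC share of the 324 bases around the 5' end had a median of 50.5% over the 72 histone genes, with a range of 38.0% to 54.6%, and of 35.8% over all protein-coding genes. The 12 distinct regions at histone genes had a median of 43.1%, beside 37.3% over all 30000 pooled regions. Every word occurred once in 9 of the 12, and in 90.5% of all pooled regions. The part of base composition in the counts was not tested.

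Motif matches were counted in the 300 bases from 250 before to 50 after the 5' end, called promoters here. At 64 of the 72 histone genes the 5' end is the first codon, so the last 50 bases of the window are coding there. Where the spacer is shorter than 250 bases, the window also reaches into the paired gene. The part of coding sequence and of base composition in these matches was not tested. TATAAA stood in 47 of 72 histone promoters (65.3%) and in 37.9% of all promoters. CCAAT stood in 39 (54.2%) and in 45.5%. GAGAGA stood in 33 (45.8%) and in 21.8%, and GGGCGG in 30 (41.7%) and in 7.83%. TGATAA, the core of a GATA factor site, was in 13 (18.1%) and in 30.2%. Copies weigh on such counts, and the 72 windows reduce to 51 distinct ones. The windows of paired genes overlap on opposite strands, so the same match can still count more than once among the 51. Of these, 32 held TATAAA (62.7%), 30 CCAAT (58.8%), 22 GAGAGA (43.1%), 24 GGGCGG (47.1%) and 13 TGATAA (25.5%), so the last share was closer to that of all promoters when each window counted once.

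Motifs that are half-sites of nuclear receptors were few. AGGTCA was in 2 of the 72 histone promoters (2.78%) and in 8.27% of all promoters, and AGTTCA in 8 (11.1%) and in 20.4%. Both AGGTCA matches were at genes with a listed pooled region. The AGTTCA matches were at 4 of the 16 genes with a region and at 4 of the 56 without. TATAAA stood at 10 of the 16 and at 37 of the 56, and CCAAT at 13 of the 16 and at 26 of the 56. These are counts of letters in fixed windows, several of which do not contain the summit. In this split, copies and paired genes were not reduced, so the same match can count more than once. The 8 windows with AGTTCA are 6 distinct ones.

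Histone genes outside the "his-" naming, and genes that supply and assemble histones, were counted for comparison from lists chosen with earlier results known. Of 11 other histone genes (8 linker histone genes, the H2A.Z gene htz-1 and the centromeric H3 genes hcp-3 and cpar-1), 8 had a listed pooled region and 7 a region in both libraries, beside 51.7% and 29.8% of all protein-coding genes. Only htz-1 (WBGene00019947) was near the 2000 strongest pooled regions, with 2.634 times the median at rank 363, 304 bp upstream. Its values were 1.452 in replicate 1 and 2.381 in replicate 2 (1.916 ± 0.6564, SD, n = 2). At every one of these 11 genes most words occurred once, with the lowest share at 94.12%.

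Of 11 supply and assembly genes, 8 had a listed pooled region and 5 a region in both libraries, beside the same 51.7% and 29.8%. The gene lin-53 (WBGene00003036), for a histone-binding subunit of several chromatin complexes, had a thresholded peak 233 bp upstream with 3.365 times the median at rank 172. It had 2.539 in replicate 1 and 3.092 in replicate 2 (2.815 ± 0.3909, SD, n = 2). The gene xnp-1 (WBGene00006961), a relative of the mammalian chromatin remodeller ATRX, had 2.889 at rank 275, 609 bp upstream, with 1.868 in replicate 1 and 1.421 in replicate 2 (1.645 ± 0.316, SD, n = 2). Neither reached the 7.09 of his-37. As for htz-1, each library value here is that of the strongest region within 1 kb. Whether it overlaps the pooled region, or lies nearer to another gene, was not examined. The gene cdl-1, for the protein that binds the stem-loop of histone messenger RNA, had 0.8102 in the pooled list, below the median region.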

How the data were processed

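NHR-76 ChIP-seq was deposited as narrowPeak region lists for 2 libraries of 1 group and for their pooled reads, on ce11 and ce10. Per the listings the authors deposited, library lists were made from alignments and a control file, and the thresholded list by an irreproducible discovery rate step. The caller, aligner, thresholds and reads per library are not given in the sources used here. The deposited signal is the caller's own value per region, and the deposited −log10 of the q-value was converted back to q. Depth is thus unknown, and no interval is given.

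For each gene the strongest region of each list with a summit within 1 kb of the Ensembl release 115 5' end was taken. Signals were divided by the median of their list. Ensembl gives 50 symbols to the 72 genes, 14 of them shared by 36 genes, so the RefSeq symbols, matched by WormBase ID for all 72, were used. For 64 genes the annotation starts and ends with the coding sequence, so the 5' end is the first codon there. The members and lists were chosen with earlier results of these data known. Genes were named by rule: those with a thresholded peak, those of the 10 strongest distinct regions, the strongest of each cluster, his-24, the H3.3 genes, and from the other lists those near the 2000 strongest regions; genes named beyond it (such as his-3, his-61 and cdl-1) were chosen after their values were seen. Counts were set beside the share over all protein-coding genes, with no test. The search for words and regions was tested on simulated data. Alternatives were other distances, ranks, q-values, word lengths, cluster gaps, overlap in place of summit distance, each library alone and the ce10 list. Python 3.11.15, numpy 2.4.6, pandas 2.3.3, Biopython 1.88 and matplotlib 3.10.9 were used.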

Additional observations from a re-analysis of the deposited data

How the results depend on the processing

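Of 50 alternative settings, 30 left a value within 1.5 times (for the median signal, within the spread between libraries, and for the share of words, within its 95% Wilson interval) and 20 moved it; the cause was not tested. The 16 histone genes with a listed pooled region became 34 at 2 kb, and 17 to 18 with a library left out. Over all protein-coding genes no share was counted at the other distances, ranks and q-values, nor for strong regions of single libraries. The 1 gene with a thresholded peak became 3 at 2 kb, and 3 to 3 among the 248 strongest regions with a library left out. The 5 genes at a q-value of 0.05 or below became 3 at 500 bp, 3 when distinct regions were counted and 1 at 0.01, and 4 to 7 with a library left out. The median multiple of 1.536 became 1.011 at 500 bp and 0.9417 at 2 kb, and 1.139 to 1.64 with a library left out. The 7 genes near the 1000 strongest regions became 4 at 500 bp and 3 for the 500 strongest, and 4 to 6 with a library left out. The 15 genes listed in both libraries became 8 at 500 bp, 23 at 2 kb and 3 for the 1000 strongest regions of each. The share of words occurring once over the 12 regions together, 91.78%, became 93.94% with words of 50 bases and 98.15% with words of 100. The count of 0 listed among genes with mostly repeated words, an alternative chosen after seeing the data like that for spliced genes, was 0 with both longer words and 1 to 2 with a library left out. Spliced genes with a listed region were 7 of 7, and 6 with a library left out or at 500 bp. The 11 listed clusters were 11 with gaps of 5 kb and 50 kb. No paired analysis was possible because the libraries form 1 group. The unknown number of reads limits what a missing region can show, above all in repeated sequence.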
